A study of Mus musculus with 5 samples.

Results

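Cathepsins are the proteases of the lysosome, the acidic compartment in which cells break down proteins. Transcript levels of 10 cathepsin genes (Ctsa, Ctsb, Ctsc, Ctsd, Ctsh, Ctsk, Ctsl, Ctss, Ctsw and Ctsz) were compared between mouse eye tumors and normal uvea, the vascular and pigmented coat of the eye that includes iris, ciliary body and choroid. The genes were taken by name from the 23141 named loci of the expression table, and each of the 10 had an entry under its name alone. The entries of Ctsa (with Neurl2 and Pltp), Ctsb (with Fdft1) and Ctsz (with Th1l) shared their locus span with other entries. The tumor group held 3 RNA-seq libraries of eye tumors of adult mice with the genotype AAV5-Cre;Lats1/2 fl/fl, in which a viral vector brought Cre recombinase to cells with floxed alleles of Lats1 and Lats2, kinase genes of the Hippo pathway. The wild-type group held 2 libraries of uveal tissue of adult wild-type mice, for which the labels name no vector. The sources used here name neither the promoter of Cre nor the cells that took up the vector. The labels do not state whether the libraries came from different animals. The p-values therefore reflect the spread among these 5 libraries alone, part of which may be technical.

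Most cathepsins are cysteine proteases of the papain family, whereas Ctsd encodes an aspartic protease and Ctsa a serine carboxypeptidase. They are made as inactive precursors, carried to lysosomes largely by mannose 6-phosphate receptors, and held in check outside lysosomes by cystatins. In the eye, the retinal pigment epithelium uses them to digest shed tips of photoreceptors, with cathepsin D as a main enzyme. Macrophages and other antigen-presenting cells use cathepsin S to trim the invariant chain of MHC class II molecules, and cathepsin K is best known as the collagen-degrading enzyme of osteoclasts.

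The upstream sequences of Ctss and Ctsd are shown because these genes had the highest and the lowest log2 fold change of the 10. They come from the RefSeq promoter table of build GRCm38.p6, which held windows for 7 of the 10 genes, 8 windows in all. Ctsb, Ctsh and Ctsw had none. The Ctss window covers the 250 bases before the start site (chr3:95526536-95526785, plus strand). For Ctsd only the 39 bases farthest upstream are shown (chr7:142388039-142388077, minus strand), since the first exon of a longer GENCODE transcript reaches 211 bases past the RefSeq start site. Capitals mark GAAA repeated after a gap of 2 bases of any kind, the letters of an interferon-stimulated response element, in Ctss, and CACGTG, the E-box bound by MITF, TFEB and their relatives, in Ctsd.
Ctss: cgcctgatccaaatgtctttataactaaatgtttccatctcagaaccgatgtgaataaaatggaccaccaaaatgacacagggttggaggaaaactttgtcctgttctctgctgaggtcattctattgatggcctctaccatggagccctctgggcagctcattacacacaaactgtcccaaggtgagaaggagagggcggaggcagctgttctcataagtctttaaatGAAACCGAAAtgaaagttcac
Ctsd: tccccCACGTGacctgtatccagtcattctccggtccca

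The GAAA repeat of Ctss spans bases 21 to 12 upstream of its start, and 2.98% of all 32851 windows in the table hold such a repeat on either strand. CACGTG is found in 6.02% of all windows. Ctsd holds it at 245 to 240 and again at 98 to 93 bases upstream, Ctsl at 236 to 231, and 1 of the pair of Ctsa windows at 12 to 7. The longest GENCODE models reach 370 bases past the Ctsl start and 900 past that Ctsa start, so these matches and the second one of Ctsd lie within the annotated genes. The pair of half-sites TTCNNNGAA, a gamma-activated site, is found in 7.02% of windows and in the Ctsc window at 236 to 228. TGANTCA, the AP-1 site, and GGAATG, the TEAD site, are found in 6.75% and 12.6% of all windows and in none of the 8. The letters were searched on both strands, none of the matches in these genes overlapped, and a match describes the sequence without showing that a factor binds there.

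The libraries held 12687703 to 14368272 estimated fragments. As a check of the labels, the whole Lats1 locus, floxed exons and others together, stood at 3.43, 3.90 and 2.94 FPKM (fragments scaled for transcript length and library size) in tumor libraries 1, 2 and 3, against 7.55 and 8.86 FPKM in wild-type libraries 1 and 2. Lats2 stood at 12.6, 17.0 and 14.3 FPKM in tumors, against 20.1 and 20.2 FPKM in wild type. All tumor libraries were below both wild-type libraries for both genes. Lats1 fell (log2 fold change -1.21, adjusted p = 0.0115) and Lats2 did not pass the threshold (-0.62, adjusted p = 0.0577), though it passed in DESeq2 (0.0151), with RLE scaling (0.0499) and without tumor library 2 (0.0168). The tissue labels were checked against markers: 10 of 11 markers of retinal pigment epithelium and 9 of 10 melanocyte markers fell, with median log2 fold changes of -7.67 and -8.48. Best1, the pigment epithelium marker without a call, was low in both groups. It had 0.599, 0.949 and 0.918 FPKM in tumors against 0.436 and 0.898 FPKM in wild type (0.35, adjusted p = 0.619). Most of the melanocyte markers are pigment genes that pigment epithelium also expresses, so the lists do not tell these cells apart. The melanocyte markers summed to 6.09 to 76.9 FPKM in tumors against 6620 to 6846 FPKM in wild type, and 4 of them (Slc45a2, Mc1r, Oca2 and Gpr143) were at 0 in at least 1 tumor library. Sox10, which glia and other neural crest cells also express, was the melanocyte marker without a call. It stood at 18.5, 49.1 and 1.73 FPKM in tumors against 84.3 and 79.3 FPKM in wild type (-1.77, adjusted p = 0.288), and it made up most of the melanocyte marker sum in tumor library 2.

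Taken as a family, the 10 cathepsins held similar summed levels in both groups, but the leading gene differed. Summed over the 10 genes, FPKM came to 3360, 3286 and 5021 in tumor libraries 1, 2 and 3, against 3484 and 3434 in the wild-type libraries. This was 0.463%, 0.518% and 0.627% of all FPKM in tumors and 0.522% and 0.551% in wild type, so the ranges overlapped on that scale. Ctsd made up 21.4% ± 7.58 of cathepsin FPKM in tumors (SD, n = 3) and 61.3% ± 0.385 in wild type (SD, n = 2). Ctss took 32.2% ± 5.69 in tumors and 2.52% ± 0.159 in wild type. The ratio of Ctss to Ctsd FPKM was 1.42, 0.944 and 2.83 in tumors against 0.0395 and 0.0428 in wild type, with no overlap. Ctsb held nearly the same mean share in both groups, 9.79% ± 1.20 in tumors and 9.65% ± 0.187 in wild type.

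**Figure D1:**
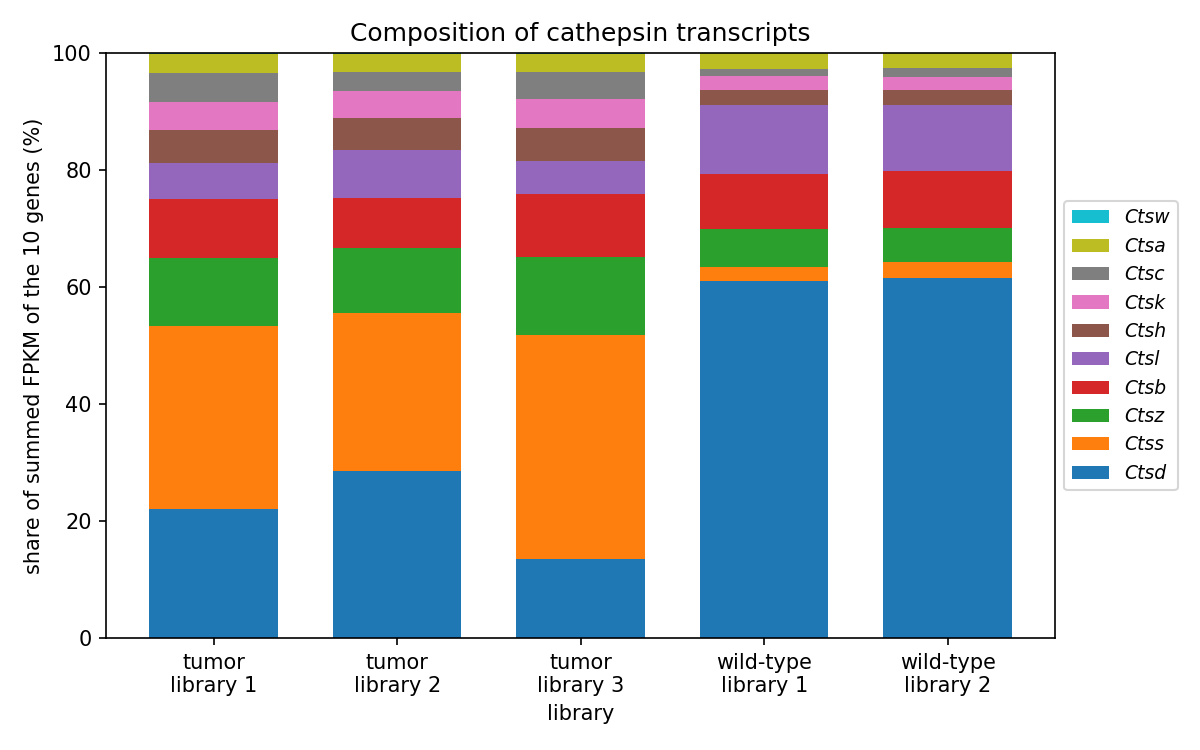
Share of each cathepsin in the summed FPKM of the 10 genes (percent, y axis) in tumor libraries 1 to 3 and wild-type libraries 1 and 2 (x axis). Ctsd fills 13.5% to 28.6% of the tumor bars and 61.1% and 61.6% of the wild-type bars, and Ctss fills 27.0% to 38.3% of the tumor bars and 2.41% and 2.64% of the wild-type bars.

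The levels were also more even in tumors. Leaving out Ctsw, the highest cathepsin was 9.69, 9.48 and 12.6 times the lowest by FPKM in tumor libraries 1, 2 and 3, against 46.6 and 42.0 times in the wild-type libraries. By mean FPKM the order in tumors was Ctss, Ctsd, Ctsz, Ctsb, Ctsl, Ctsh, Ctsk, Ctsc, Ctsa and Ctsw. Neighbours in that order overlapped in range except Ctsd with Ctsz, Ctsb with Ctsl and Ctsa with Ctsw. In wild type the order was Ctsd, Ctsl, Ctsb, Ctsz, Ctsa, Ctsh, Ctss, Ctsk, Ctsc and Ctsw, and overlapping neighbours were Ctsa with Ctsh and Ctsh with Ctss. Among all 23141 named loci, Ctss ranked 95 by mean FPKM in tumors and 1082 in wild type, and Ctsd ranked 141 in tumors and 25 in wild type.

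**Figure D2:**
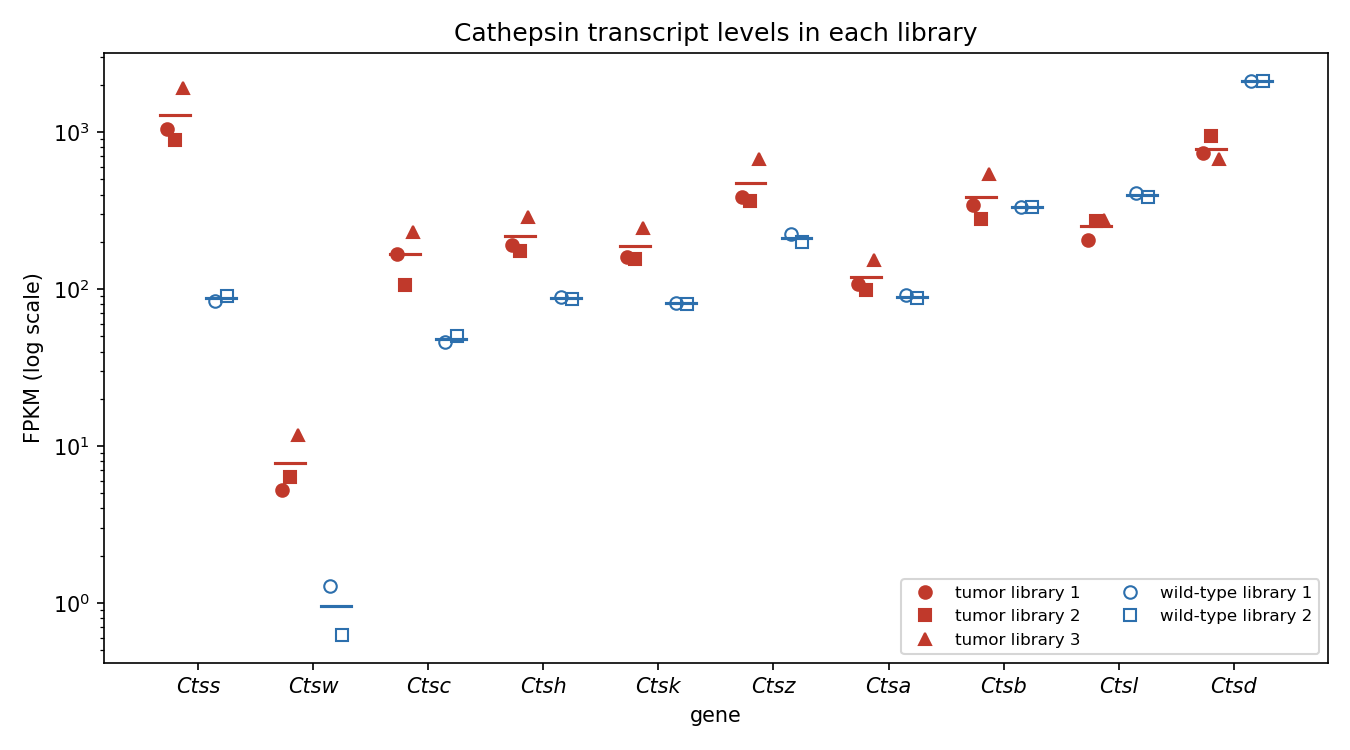
FPKM on a log axis (y) of the 10 cathepsins (x), with 1 point per library and a bar at the group mean, tumors in red and wild type in blue. All 3 tumor points lie above both wild-type points for 7 genes and below them for Ctsl and Ctsd, and tumor library 3 is the highest tumor point for 9 genes.

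All 10 cathepsins entered the test, an edgeR quasi-likelihood comparison of 3 tumor with 2 wild-type libraries with p-values adjusted over 15241 loci. Ctss, Ctsw, Ctsc, Ctsh and Ctsk rose, Ctsd fell, and Ctsz, Ctsa, Ctsb and Ctsl did not pass the threshold of 0.05. Thus 6 of 10 changed, where 34.1% of all tested loci did, with 5 of 10 higher against 18.7% of all loci and 1 of 10 lower against 15.4%. All tumor libraries stood above both wild-type libraries for 7 of 10 (33.7% of all loci) and below them for 2 of 10 (35.9%), so the groups did not overlap for 9 of 10 (69.5%). The median log2 fold change was 1.24 over the 10 genes and 0.05 over all tested loci. The shares of 18.7% and 15.4% of all tested loci also stand beside the counts of each gene list and marker list in this text. The changes were of bulk tissue, in which fewer cells of a type and less RNA per cell cannot be told apart. The edgeR calls rested on having both wild-type libraries. When library 1 or 2 of wild type was left out, 0 loci passed in edgeR (4085 and 3995 at an unadjusted p under 0.05, with 6 of the 10 cathepsins in each), whereas 2799 and 2830 loci passed in DESeq2, with 4 cathepsins higher and 1 lower in each.

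**Figure D3:**
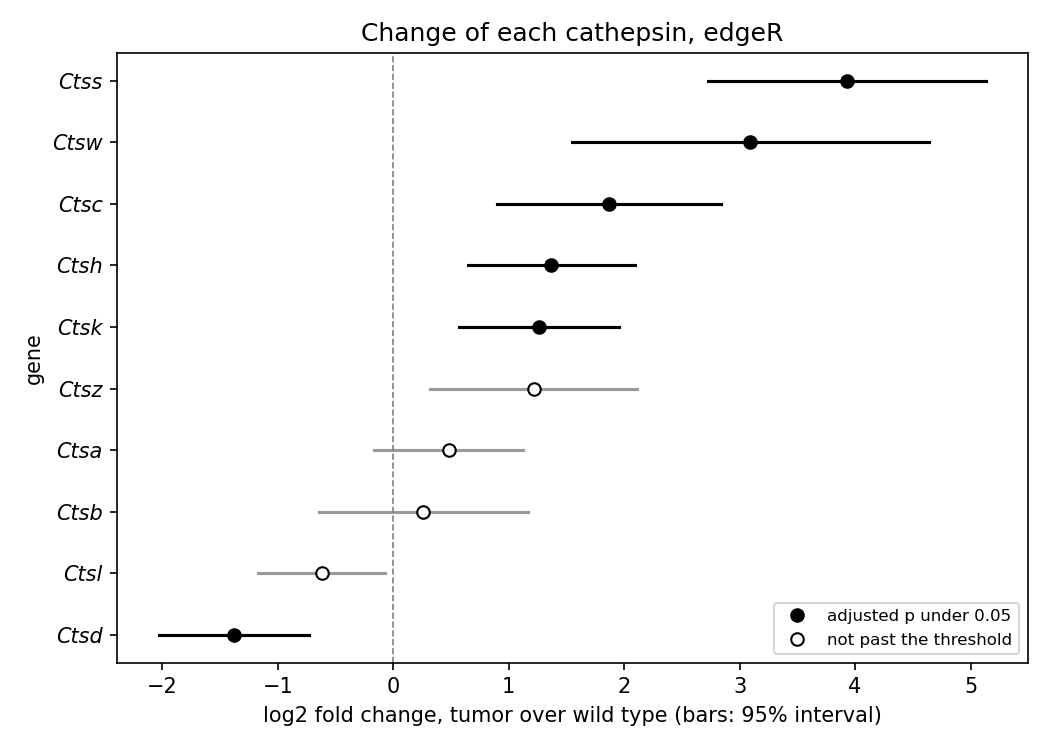
Log2 fold change of each cathepsin, tumor over wild type, from edgeR (x axis), with bars for the 95% interval and filled points for an adjusted p under 0.05. Ctss lies highest at 3.93 and Ctsd lowest at -1.38, and the bars of Ctsa and Ctsb cross 0.

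Ctss encodes cathepsin S, the endopeptidase that removes the last part of the invariant chain from MHC class II molecules. It lies on chromosome 3 (95526786 to 95556403, plus strand, up to 8 exons, GRCm38). Ctss stood at 1052, 888 and 1922 FPKM in tumor libraries 1, 2 and 3, against 84.0 and 90.5 FPKM in the wild-type libraries. Every tumor library was at least 10.2 times the wild-type mean, and library 3 was 22.0 times. The mean was 1287 ± 556 FPKM in tumors (SD, n = 3) and 87.3 ± 4.6 FPKM in wild type (SD, n = 2). This gave a log2 fold change of 3.93 (SE 0.47, 95% interval 2.73 to 5.14, edgeR adjusted p = 0.00808). Among all tested loci, 2.95% had a larger log2 fold change.

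The partners of cathepsin S in class II presentation were higher as well. All 12 tested genes of that list rose, with a median log2 fold change of 4.73 against 0.05 over all tested loci. Neither wild-type library had a count for H2-Eb2, and with this gene at a floor of 3 counts per library the median was 4.50. Cd74, the gene of the invariant chain itself, shares its locus with Mir5107 and stood at 4073, 5159 and 10553 FPKM in tumors, against 185 and 183 FPKM in wild type (log2 fold change 5.07, adjusted p = 0.00933). The class II chain gene H2-Aa stood at 2210, 1831 and 4225 FPKM in tumors, against 134 and 142 FPKM in wild type (4.37, adjusted p = 0.00807). Another chain gene, H2-Eb1, had 4.09 (adjusted p = 0.00833), and H2-Ob, a chain of the peptide-loading regulator H2-O, had 4.87 (adjusted p = 0.00833). Tumor library 3 was the highest for each of these genes, as for Ctss.

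Macrophage markers moved with Ctss. Of 14 marker loci, 11 rose and 1 fell, with a median log2 fold change of 3.38, and they summed to 7756, 4898 and 15858 FPKM in tumor libraries 1, 2 and 3, against 1029 and 1011 FPKM in wild type. Library 3 was highest and library 2 lowest for both this sum and Ctss, and no marker was at 0 in any library. Fcgr1 (log2 fold change 4.71, adjusted p = 0.00445), Cd14 (4.0, 0.00681) and C1qa (3.65, 0.00885) had the smallest p-values among the macrophage markers that rose. Csf1r, the receptor that macrophages need to survive, had 158, 142 and 265 FPKM in tumors and 86.1 and 96.5 FPKM in wild type, without passing the threshold (1.03, adjusted p = 0.0735), though it passed in DESeq2 (0.0207) and without tumor library 2 (0.0459) or 3 (0.0469). Mertk, a receptor for engulfing dead cells that pigment epithelium also uses, fell (-1.92, adjusted p = 0.0471), a call lost without tumor library 1 (0.103) or 2 (0.0614), with a log2 fold change of -2.63 without library 3. The part of macrophage content in the Ctss difference was not tested.

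Ctsk, the gene of the collagenase cathepsin K, is the neighbour of Ctss, 17423 bases away on the same strand of chromosome 3 (95499256 to 95509362, up to 8 exons). Ctsk stood at 161, 156 and 247 FPKM in tumor libraries 1, 2 and 3, against 81.1 and 80.9 FPKM in the wild-type libraries. Both genes were higher in every tumor library, but Ctsk by a smaller factor: the ratio of the group means was 2.32, against 14.8 for Ctss. The log2 fold change of Ctsk was 1.26 (SE 0.27, 95% interval 0.57 to 1.96, edgeR adjusted p = 0.0259). DESeq2 without wild-type library 1 or 2 did not call it (adjusted p = 0.0608 and 0.0584).

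Most markers of osteoclasts and fibroblasts, cell types in which cathepsin K is prominent, were higher. Among osteoclast markers 5 of 7 tested rose and none fell (median log2 fold change 1.92), and the 10 matched markers summed to 69.9, 67.7 and 231 FPKM in tumors, against 16.4 and 16.3 FPKM in wild type. The calcitonin receptor gene Calcr, a defining osteoclast marker, was at 0.107, 0.0872 and 0.0688 FPKM in tumors and at 0 in both wild-type libraries. Acp5, the acid phosphatase used to stain osteoclasts and also made by macrophages, rose (log2 fold change 3.81, adjusted p = 0.0228, and 2.93 without tumor library 3). The gelatinase gene Mmp9 rose too (4.92, adjusted p = 0.0318, and 3.68 without tumor library 3). Ocstamp, needed for osteoclast fusion, also passed (4.23, adjusted p = 0.0186), on 26, 19 and 48 fragments in tumors and 2 and 1 in wild type. Its call was lost in limma without a filter (0.0787) and without wild-type library 1 or 2, in edgeR (0.143 and 0.163) and in DESeq2 (0.0546 and 0.0585), and its value was 2.97 in limma with 0.1 FPKM added and 1.065 with 1 added. Of 10 fibroblast markers 5 rose and 1 fell (median log2 fold change 2.23), with sums of 3764, 2814 and 4515 FPKM in tumors against 1813 and 2014 FPKM in wild type. The collagen genes Col1a1 (2.61, adjusted p = 0.0191) and Col3a1 (4.15, 0.00759) were among those that rose, with Postn (2.95, 0.00846) and Thy1 (3.82, 0.0114). Fap, a protease of activated fibroblasts, fell (-1.19, adjusted p = 0.0335), a call lost without tumor library 2 (0.0617) or 3 (0.0565). All tumor libraries stood above both wild-type libraries for 7 of the 10 fibroblast markers and below them for 2, Fap and Dcn. Dcn had 809, 491 and 448 FPKM in tumors against 1206 and 1373 FPKM in wild type (-1.09, adjusted p = 0.0600). Lum had 211, 131 and 25.5 FPKM in tumors against 128 and 144 FPKM in wild type (-0.10, adjusted p = 0.937). The part of these cell types in the Ctsk difference was not tested.

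Ctsl and Ctsb encode the other broadly made endopeptidases, and neither passed the threshold. Ctsl (chromosome 13, 64359337 to 64370890, minus strand, up to 9 exons) stood at 206, 273 and 276 FPKM in tumor libraries 1, 2 and 3, against 410 and 387 FPKM in wild type. All tumor libraries were below both wild-type libraries, with a log2 fold change of -0.62 (SE 0.21, 95% interval -1.17 to -0.07, edgeR adjusted p = 0.0795). DESeq2 called Ctsl lower (adjusted p = 0.00851). Annotated Gm47123 and Gm49230 overlap 32.9% of its exonic bases, and since the strand setting of the counting is not given, their reads cannot be told apart from those of Ctsl.

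Ctsb (chromosome 14, 63122462 to 63145923, plus strand, up to 10 exons) was the only cathepsin whose groups overlapped. It stood at 341, 278 and 540 FPKM in tumor libraries 1, 2 and 3, against 332 and 336 FPKM in wild type. Tumor library 2 was below both wild-type libraries and library 3 well above them. The log2 fold change was 0.26 (SE 0.35, 95% interval -0.64 to 1.17, edgeR adjusted p = 0.590), and it was -0.067 without tumor library 3. The interval leaves room for either direction. Fdft1, which encodes squalene synthase, overlaps 12.8% of the exonic bases of Ctsb on the opposite strand.

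Cathepsins C, H and Z trim proteins from their ends. Ctsc (chromosome 7, 88278085 to 88310888, plus strand, up to 7 exons) encodes the dipeptidyl peptidase that activates granule proteases of immune cells. It stood at 166, 107 and 231 FPKM in tumor libraries 1, 2 and 3, against 45.7 and 50.4 FPKM in wild type. Every tumor library was above both wild-type libraries, and the means were 168 ± 62.1 FPKM in tumors (SD, n = 3) and 48.0 ± 3.35 FPKM in wild type (SD, n = 2). The log2 fold change was 1.87 (SE 0.38, 95% interval 0.90 to 2.84, edgeR adjusted p = 0.0227).

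Ctsh (chromosome 9, 90054152 to 90076089, plus strand, up to 12 exons) encodes an aminopeptidase that processes surfactant protein in lung. Its level was 192, 175 and 289 FPKM in tumor libraries 1, 2 and 3, against 88.4 and 86.4 FPKM in wild type. The groups did not overlap, and the log2 fold change was 1.37 (SE 0.28, 95% interval 0.64 to 2.10, edgeR adjusted p = 0.0237). Ctsc, Ctsh, Ctsk and Ctss are the 4 cathepsins whose exons no other annotated gene overlaps.

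Ctsz (chromosome 2, 174427493 to 174439039, minus strand, up to 6 exons) encodes a carboxypeptidase that is plentiful in macrophages. It had 389, 364 and 674 FPKM in tumor libraries 1, 2 and 3, against 224 and 200 FPKM in wild type, so every tumor library was above both. The log2 fold change was 1.21 (SE 0.35, 95% interval 0.32 to 2.11), close to that of Ctsk, but the adjusted p of 0.0507 from edgeR missed the threshold. Without tumor library 2 or 3 it passed (adjusted p = 0.0363 and 0.0269), as it did in DESeq2 (0.0056).

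Ctsw (chromosome 19, 5465043 to 5468507, minus strand, up to 10 exons) encodes cathepsin W, found mainly in cytotoxic T cells and natural killer cells. It was by far the lowest of the 10, with 5.26, 6.35 and 11.8 FPKM in tumor libraries 1, 2 and 3, against 1.28 and 0.626 FPKM in wild type. These levels rest on 81, 94 and 166 fragments in tumors and 18 and 8 fragments in wild type. The groups did not overlap, and the log2 fold change was 3.09 (SE 0.60, 95% interval 1.55 to 4.64, edgeR adjusted p = 0.0209). The wild-type libraries differed from each other by a factor of 2.05 in Ctsw, where the other 9 cathepsins differed by factors of 1.00 to 1.12.

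Most markers of T and natural killer cells were higher beside Ctsw. Of 11 tested markers 7 rose and none fell, with a median log2 fold change of 4.20. The 4 without a call were Klrd1 (4.13, adjusted p = 0.0528), Nkg7 (2.96, 0.0682), Gzmb (3.28, 0.173) and Gzma (-0.12, 0.934). Gzmb stood at 0.581, 0.589 and 8.92 FPKM in tumors against 0.430 and 0.265 FPKM in wild type. Gzma stood at 0.314, 0.531 and 2.57 FPKM in tumors against 0.998 and 1.55 FPKM in wild type. The 13 matched markers summed to 38.1, 43.0 and 109 FPKM in tumor libraries 1, 2 and 3, against 5.62 and 5.13 FPKM in wild type. Tumor library 3 was highest and library 1 lowest, as for Ctsw. The smallest p-values were those of Cd3g, for a CD3 chain of the T cell receptor complex (4.38, adjusted p = 0.00853), the adhesion molecule gene Cd2 (3.94, 0.0140) and the natural killer receptor locus Klrb1b and Klrb1c (4.20, 0.00732). Ncr1, a defining natural killer cell marker, was too low to test, at 0.193 ± 0.124 FPKM in tumors (SD, n = 3) and 0.0911 ± 0.0386 FPKM in wild type (SD, n = 2), and Cd3d was at 0 in 1 wild-type library. The part of these cells in the Ctsw difference was not tested.

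Ctsd (chromosome 7, 142375911 to 142388038, minus strand, up to 9 exons) encodes cathepsin D, the aspartic endopeptidase of the set, and was the cathepsin that fell. It stood at 740, 941 and 679 FPKM in tumor libraries 1, 2 and 3, against 2127 and 2115 FPKM in wild type. Each tumor library had 0.320 to 0.444 of the wild-type mean. Means were 786 ± 137 FPKM in tumors (SD, n = 3) and 2121 ± 8.47 FPKM in wild type (SD, n = 2), which gave a log2 fold change of -1.38 (SE 0.25, 95% interval -2.03 to -0.73, edgeR adjusted p = 0.0185). The predicted gene Gm49369 overlaps 34.4% of its exonic bases on the same strand, and reads of the pair cannot be told apart.

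The fall of Ctsd stood beside a loss of pigment epithelium transcripts. The 11 markers of retinal pigment epithelium summed to 243, 260 and 227 FPKM in tumor libraries 1, 2 and 3, against 18137 and 17922 FPKM in wild type. Most of the tumor sums came from Rdh5, whose locus is shared with Bloc1s1, a gene of lysosome-related organelles expressed in many cell types. That locus held 228, 176 and 213 FPKM in tumors, against 2602 and 2364 FPKM in wild type. Without it the sums were 15.2, 83.3 and 13.9 FPKM in tumors, against 15534 and 15557 FPKM in wild type, and none of the markers was at 0. Rpe65, the visual cycle isomerase gene, stood at 0.472, 5.97 and 0.686 FPKM in tumors against 745 and 829 FPKM in wild type (log2 fold change -8.31, adjusted p = 0.0149, and -10.39 without tumor library 2). Stra6 (-7.29), Rgr (-9.09) and the locus of Rdh5 (-4.95) had the smallest p-values of the list. Among melanocyte markers, Pmel (-9.77), Mlana (-8.74) and Tyr (-6.93) had the smallest, and without tumor library 2 the values of Mlana and Tyr were -9.46 and -7.53. The part of pigment cells in the Ctsd difference was not tested.

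Ctsa (chromosome 2, 164832873 to 164841032, plus strand, up to 16 exons) encodes cathepsin A, or protective protein, which holds beta-galactosidase (Glb1) and neuraminidase (Neu1) together in a complex. Ctsa stood at 109, 99.2 and 152 FPKM in tumor libraries 1, 2 and 3, against 91.4 and 87.1 FPKM in wild type. All tumor libraries were above wild type, but the log2 fold change of 0.48 (SE 0.25, 95% interval -0.17 to 1.13) did not pass the threshold (edgeR adjusted p = 0.192). The genes Neurl2 and Pltp overlap 17.4% of its exonic bases on the opposite strand. Both enzymes of the complex fell. The Glb1 locus, shared with Tmppe, stood at 13.6, 15.1 and 18.9 FPKM in tumors against 35.0 and 32.7 FPKM in wild type (-0.81, adjusted p = 0.0397). Neu1 stood at 11.2, 10.2 and 15.7 FPKM in tumors against 25.9 and 26.1 FPKM in wild type (-1.02, adjusted p = 0.0259). The Glb1 call was lost without tumor library 1 (0.0574) or 2 (0.0508), and the Neu1 call without tumor library 1 (0.0601).

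Across the tumors, the cathepsins tended to be high or low in the same library. Tumor library 3 was the highest for 9 of 10 cathepsins, and Ctsd, the exception, was lowest there and highest in library 2. Tumor library 2 was the lowest for 7 cathepsins and library 1 for Ctsl and Ctsw. The shares of all loci that were highest or lowest in each tumor library were not counted. These counts therefore do not set the cathepsins apart from other genes. The highest tumor library exceeded the lowest by factors of 1.34 (Ctsl) to 2.24 (Ctsw). The wild-type libraries differed less, by a factor of 1.12 at most outside Ctsw. Library 3 was also highest in the sums of macrophage, T and natural killer cell, and osteoclast markers, and lowest in those of pigment epithelium and melanocyte markers. Marker by marker, library 3 was lowest for 8 of 10 melanocyte markers but for only 4 of 11 pigment epithelium markers, and library 1 for 6 of the 11. Without the Rdh5 locus the pigment epithelium sums of libraries 1 and 3 were close, at 15.2 and 13.9 FPKM. Fibroblast markers were split, with 5 of 10 highest and the other 5 lowest in library 3. The part of cell content in these differences was not tested.

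Inhibitors of cysteine cathepsins did not move as a block. Of 13 listed genes 8 were tested, of which 2 rose, 1 fell and 5 did not pass the threshold, with a median log2 fold change of 1.16. Over all tested loci 18.7% rose and 15.4% fell, and these small counts are near those shares. Cst3, the gene of the secreted inhibitor cystatin C and the most abundant of them, stood at 3175, 4069 and 2337 FPKM in tumor libraries 1, 2 and 3, against 11153 and 8963 FPKM in wild type. It fell (log2 fold change -1.60, SE 0.33, adjusted p = 0.0241), a call lost without tumor library 1 (0.0651), where no inhibitor was called lower, whereas without library 2 there were 2. The 8 cysteine cathepsins together had 2512, 2246 and 4190 FPKM in tumors, against 1265 and 1231 FPKM in wild type. The FPKM of Cst3 was thus 1.26, 1.81 and 0.558 times theirs in tumors, against 8.81 and 7.28 times in wild type, with no overlap between the groups.

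Cstb, the cystatin that acts inside cells, had 261, 231 and 427 FPKM in tumors and 198 and 163 FPKM in wild type, and did not pass the threshold (0.81, adjusted p = 0.110). The inhibitors that rose were Ctla2b, which resembles a cathepsin propeptide (2.84, adjusted p = 0.0177), and a locus shared by Serpina3g and 5 further Serpina3 names (4.88, adjusted p = 0.0347). The Serpina3 locus had 25.0, 29.7 and 168 FPKM in tumors and 2.96 and 2.28 FPKM in wild type, and its log2 fold change was 3.42 without tumor library 3. Genes of that locus are close paralogs, so the split of reads among them is uncertain.

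Other lysosomal proteases changed in both directions. Of 21 listed genes 10 were tested, of which 5 rose, 2 fell and 3 did not pass, with a median log2 fold change of 1.66, and 3 rose without tumor library 1. Over all tested loci 18.7% rose and 15.4% fell. Among those that did not pass, the cysteine cathepsin gene Ctsf stood at 22.0, 28.7 and 3.60 FPKM in tumors against 106 and 104 FPKM in wild type (-2.48, adjusted p = 0.0720). Its groups did not overlap. Ctso, another cysteine cathepsin gene, had -0.10 (adjusted p = 0.727). The third was Tinagl1, whose product resembles a cathepsin but is not an active protease. It stood at 25.5, 398 and 22.2 FPKM in tumors against 51.3 and 44.8 FPKM in wild type. Its log2 fold change of 1.68 (adjusted p = 0.407), next to the median of the list, rests on tumor library 2. The aspartic protease gene Ctse, an intracellular relative of Ctsd, stood at 30.3, 11.5 and 23.0 FPKM in tumors against 0.350 and 0.0838 FPKM in wild type (6.64, adjusted p = 0.00833). The wild-type level rests on 9 and 2 fragments, and the log2 fold change was 7.93 without wild-type library 1 and 5.94 without library 2, where edgeR lost the call (0.0854 and 0.0943) and DESeq2 kept it. It was 4.12 in limma on log2(FPKM + 1). Napsa, another aspartic protease gene, also rose (3.50, adjusted p = 0.00833). So these relatives were higher in the tumors in which Ctsd was lower, at levels far under that of Ctsd. Lgmn encodes legumain, which processes precursors of several cathepsins, and stood at 322, 256 and 532 FPKM in tumors against 99.1 and 102 FPKM in wild type (1.93, adjusted p = 0.0218). The peptidase genes Tpp1 (-1.22, adjusted p = 0.00808) and Dpp7 (-1.12, adjusted p = 0.0112) fell. The remaining cathepsin genes of the placental cluster (Cts3, Cts6, Cts7, Cts8, Ctsj, Ctsll3, Ctsm, Ctsq and Ctsr) were at 0 in every library.

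Lysosomal hydrolases other than proteases did not move as a block. The list held 34 tested genes for the breakdown of sugars, lipids and nucleic acids. Among them, the acetyltransferase gene Hgsnat and the activator protein genes Psap and Gm2a do not encode hydrolases. Of the 34 genes 4 rose, 7 fell, Hgsnat among them (-0.54, adjusted p = 0.0360), and 23 did not pass. The median log2 fold change was -0.11. Over all tested loci 18.7% rose and 15.4% fell, and the counts of the list are near those shares. Without tumor library 1 there were 2 that fell, and without library 3 there were 11, while 7 rose without library 2. Gusb (1.77, adjusted p = 0.0106) and Pla2g15 (2.00, adjusted p = 0.0114), which cut glucuronides and phospholipids, were among those that rose. Gaa, which cuts glycogen (-1.48, 0.00705), and Smpd1, which cuts sphingomyelin (-2.81, 0.00808), had the smallest p-values of those that fell.

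Among 34 tested genes of the lysosomal membrane and its proton pump, 2 rose, 15 fell and 17 did not pass, with a median log2 fold change of -0.63, and 4 rose without tumor library 2. Over all tested loci 18.7% rose and 15.4% fell. The pump subunit genes Atp6v0a1 (-2.52, adjusted p = 0.00660) and Atp6v1e1 (-1.47, 0.00732) and the membrane protein gene Laptm4b (-2.81, 0.00542) fell. The genes that rose were Laptm5, made in blood cells (3.29, 0.0155), and Atp6v0a3, or Tcirg1, the pump subunit of osteoclasts and macrophages (2.04, 0.0106). Lamp1, a main membrane protein of lysosomes, had 315, 265 and 437 FPKM in tumors and 208 and 215 FPKM in wild type, without passing the threshold (0.73, adjusted p = 0.10), though it passed in DESeq2 (0.0499) and without tumor library 2 (0.0492).

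**Figure D4:**
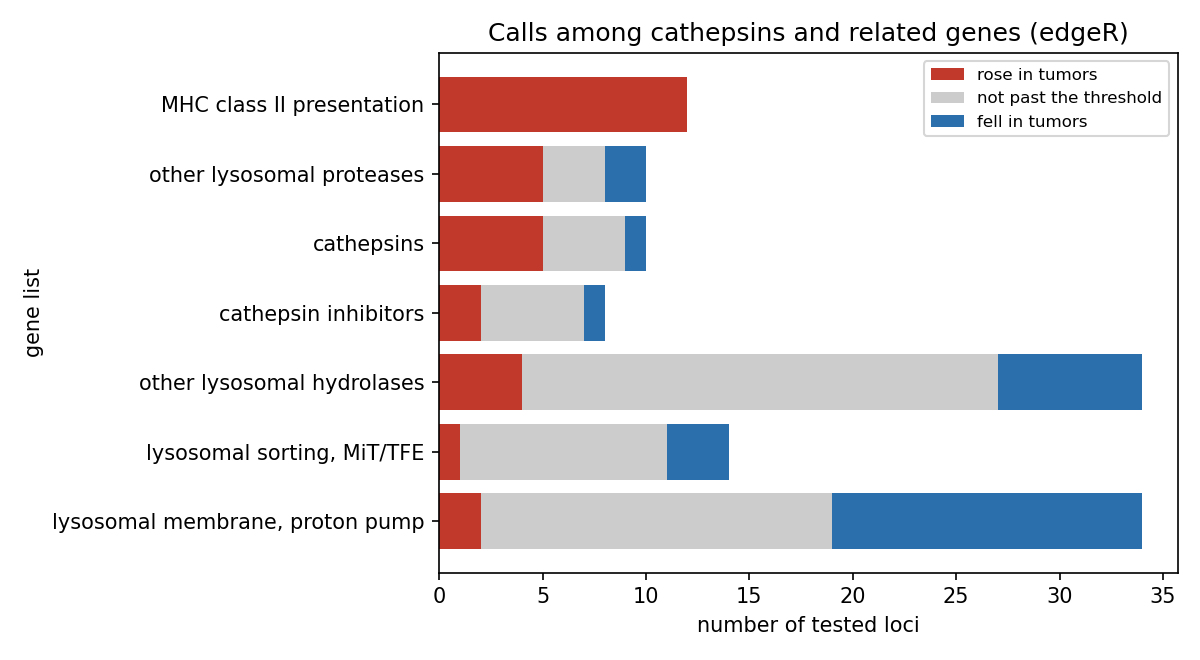
Number of tested loci (x axis) that rose, did not pass the threshold or fell in tumors against wild type (edgeR, adjusted p under 0.05), for the cathepsins and 6 lists of related genes (y axis). All 12 class II genes rose, whereas 15 of 34 membrane and proton pump genes fell and 2 rose.

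Of 14 genes for sorting enzymes to lysosomes and for the MiT/TFE transcription factors that drive lysosomal genes, 1 rose, 3 fell and 10 did not pass, with a median log2 fold change of 0.35, and 2 rose without tumor library 2 and 3 without library 3. Over all tested loci 18.7% rose and 15.4% fell. Mitf, the factor of this family that also drives pigment genes, stood at 3.83, 3.16 and 4.53 FPKM in tumor libraries 1, 2 and 3, against 22.0 and 21.7 FPKM in wild type (-2.42, adjusted p = 0.00442). Tfeb did not pass the threshold, with 19.7, 16.6 and 14.5 FPKM in tumors and 27.1 and 25.3 FPKM in wild type (-0.58, adjusted p = 0.0583). It passed in DESeq2 (0.0212) and without tumor library 1 (0.0385), and its groups did not overlap. The relatives Tfec and Tfe3 were higher in every tumor library, without a call. Tfec stood at 5.43, 2.82 and 11.3 FPKM in tumors against 0.946 and 0.459 FPKM in wild type (3.15, adjusted p = 0.0515). Tfe3 stood at 13.7, 17.9 and 25.3 FPKM in tumors against 13.1 and 13.2 FPKM in wild type (0.51, adjusted p = 0.21). Igf2r, a mannose 6-phosphate receptor, had 0.81 (adjusted p = 0.0824, and 0.0370 without tumor library 3), and the progranulin gene Grn had 1.23 (adjusted p = 0.0798, and 0.0314 without tumor library 3). Sort1, which carries enzymes to lysosomes by another route, fell (-3.52, adjusted p = 0.0153, and -4.11 without tumor library 2), as did Gnptg (-1.17, 0.00667), a subunit of the enzyme that starts the mannose 6-phosphate tag. Nagpa, which finishes the tag, rose (1.19, 0.0347).

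For each cathepsin, the loci most like it were those with the smallest mean absolute difference over the 5 libraries of log2(FPKM + 1) set to the wild-type mean, among 7106 loci with a single name and a mean of at least 10 FPKM. Ctss was closest to Fgd2 (0.0196) and then Fyb (0.0932), and Ctsc to Panx1 (0.0675) and Maf (0.0702). Ctsk was closest to Arpc5 (0.0238) and Arpc2 (0.0291), Ctsh to Sema4d (0.0365) and Tpst2 (0.0398), and Ctsz to Mesdc1 (0.0339) and Psme1 (0.0401). Ctsw was closest to Emilin2 (0.0834) and Csf2ra (0.0988). Ctsd was closest to Zer1 (0.0560) and Tom1l2 (0.0617), and Ctsl to Bag6 (0.0278) and Nol6 (0.0339). Ctsa was closest to Itm2b (0.0217) and Akr1b10 (0.0260), and Ctsb to B4galt1 (0.0501) and Rnf115 (0.0524). No cathepsin was among the 2 closest loci of another. With only 2 of 7106 loci kept for each, and Ctsw under the 10 FPKM limit, this does not show that the cathepsins differ from each other. The values describe likeness over 5 libraries on the scale of log2(FPKM + 1), where the added 1 shrinks the ratios of loci with low FPKM. A small difference is therefore not an equal fold change. The log2 fold change was 4.46 for Fgd2 (1.75 and 2.04 FPKM in wild type) and 4.31 for Fyb, against 3.93 for Ctss. It was 2.16 for Panx1 against 1.87 for Ctsc, and 2.55 for Emilin2 against 3.09 for Ctsw. For Itm2b and Ctsa it was 0.48 in both.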

How the data were processed

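RNA was measured in 3 tumor and 2 wild-type libraries made from frozen tissue with Trizol and an Illumina TruSeq kit, per the labels' protocols. The submitters' processing notes name TopHat2 2.0.9, Cufflinks 2.2.1, Cuffdiff and build mm10 (GRCm38). How the strand was set and which annotation was used is not given in the sources used here. Per the file headers, the authors' table gives for each locus and replicate an estimated count of fragments that was not scaled, a scaled fragment signal and an FPKM. The authors' scaled signal served only to read their scaling factors (0.931 to 1.06). Levels and shares use the deposited FPKM, which corrects for length and depth.

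Condition names gave the groups. The table's replicate numbers only name libraries, since nothing ties them to the labels' numbers. Library pairs differed by more than sampling noise (chi-square per degree of freedom 102 to 129 for tumors and 5.43 for wild type). Loci without a name (1627 of 24768, with 1.52% to 4.37% of fragments) were left out. Of the deposited counts, 96.8% to 97.1% were whole, and all were rounded. A failed estimate marked 3 values, which were used as they stand.

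Counts of 23141 named loci were tested in edgeR 4.0.16 (R 4.3.3) by filterByExpr (minimum count 10), TMM (factors 0.909 to 1.08) and the quasi-likelihood F-test, two-sided, with Benjamini-Hochberg adjustment over 15241 loci. An adjusted p under 0.05 was a change, and unnamed adjusted p-values are from edgeR. The SE is the log2 fold change over the square root of F. The script was tested on simulated data. Alternatives used other scalings and filters, DESeq2 1.42.0, limma 3.58.1 on log2(FPKM + 1) or log2(FPKM + 0.1), voom, a replicate block, and leaving out each library.

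The members and lists were chosen with earlier results of these data known, as were the motifs. Lists were matched by symbol, older or newer. The T cell gene Trac was not matched, C1qb and C1qc share a locus, and Acp5, Cd68 and Atp6v0d2 stand in 2 lists each. Named genes are the 10 members, 18 fixed genes, up to 3 changed genes with the smallest p per list and direction, and the 2 loci most like each member. A gene that this rule names is not reported here. Genes at 0, overlapping genes, genes that share a locus span and some listed genes without a call are named besides. Gene positions are from GENCODE on GRCm38.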

Additional observations from a re-analysis of the deposited data

How the results depend on the processing

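The log2 fold changes of Ctsa, Ctsc, Ctsd, Ctsh, Ctsk, Ctsl, Ctss, Ctsw and Ctsz kept their direction under every alternative run, and that of Ctsb (0.26) turned to -0.063 with the replicate block and spanned -0.081 to 0.42 when 1 library was left out, with -0.067 in edgeR and -0.081 in DESeq2 without tumor library 3. The count of cathepsins that rose (5) and fell (1) became 2 and 0 in limma on log2(FPKM + 1) without a filter, where Ctsc, Ctsd, Ctsh and Ctsk lost their calls, and DESeq2 called 2 lower. Ctsz passed the threshold in 12 of 21 alternatives (adjusted p over all 21 from 2.24e-05 to 0.270) and Ctsl in 4. Changed loci numbered 5201 as reported, 3266 when a mean of 10 FPKM or more was required and 3067 with the replicate block. The libraries share only a number: deviations of same-numbered libraries correlated at 0.0131 and 0.0267, and with the block 4 cathepsins rose and 1 fell, Ctsw missing the threshold (0.0518). Inhibitors that rose numbered 4 in DESeq2, 1 in unfiltered limma and 0 in voom, and those that fell 2 and 0 in limma with 1 and 0.1 added. Other proteases that rose numbered 3 in unfiltered limma, and membrane genes that rose 4 in DESeq2. Sorting genes that rose numbered 3 with library size only, 2 with upper quartile scaling, 4 in DESeq2, 2 in limma with either number added and 0 unfiltered. T and natural killer cell markers that rose numbered 4 in voom and in unfiltered limma, and 0 at a mean of 10 FPKM or more, which leaves too few of them. Osteoclast markers that rose numbered 2 at that level and 1 in unfiltered limma. Macrophage markers that fell numbered 0 in edgeR and limma without filters. Fibroblast markers that fell numbered 2 at a mean of 10 FPKM or more, in DESeq2, in voom and in limma with either number added, and 0 in unfiltered limma and with the block. Beyond this loss of tested genes, the cause was not tested.

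Leaving out 1 library at a time, in edgeR and in DESeq2 (DESeq2 without a library and voom were chosen after seeing the data), cathepsins that rose numbered 0 to 6 and that fell 0 to 2, and changed loci 0 to 6752. Rises and falls numbered 0 to 5 and 0 to 2 for inhibitors, 0 to 5 and 0 to 4 for other proteases, 0 to 8 and 0 to 11 for hydrolases, 0 to 5 and 0 to 19 for membrane genes, and 0 to 5 and 0 to 4 for sorting genes. They numbered 0 to 13 and 0 to 1 for macrophage, 0 to 7 and 0 to 2 for fibroblast, and 0 to 5 and 0 to 1 for osteoclast markers. Rises numbered 0 to 12 for class II genes and 0 to 10 for T and natural killer cell markers, and falls 0 to 10 each for pigment epithelium and melanocyte markers. The lowest of these counts for cathepsins came from edgeR without a wild-type library. There the lone wild-type library is taken to vary like the tumors, in edgeR and DESeq2 alike. Why the tools differed was not tested. Ctsw had the fewest fragments of the 10 cathepsins, 81 to 166 in tumors and 18 and 8 in wild type. Shares of cathepsin transcripts taken from fragments instead of FPKM put Ctsb at 21.4% to 27.5% in tumors and 21.6% and 22.1% in wild type, since that scale counts long transcripts more.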
